A study of Mus musculus with 12 samples.

Results

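SR proteins and heterogeneous nuclear ribonucleoproteins (hnRNPs) are 2 large families of RNA-binding proteins that help to set which exons are kept in an mRNA. Their genes were followed here in mouse oligodendrocyte progenitor cells (OPCs) exposed to quaternary ammonium compounds. Members were taken by name: symbols beginning with Srsf and a digit, Tra2a and Tra2b, symbols beginning with Srrm and a digit, and Rsrp1 made up the SR and SR-related family, and symbols beginning with Hnrnp made up the other. Pseudogene symbols ending in -ps, 2 in number, were left out. Of the 38 symbols that matched, 36 reached 1 TPM, a length-corrected share of the transcripts of a library, in at least 3 of the 12 libraries: 16 SR and SR-related genes and 20 hnRNP genes, among 12009 genes that passed the same filter of 35385 symbols in all. The remaining 2 were Srrm3, with at most 0.444 TPM, and Srrm4, with at most 0.125 TPM, and they were not tested.

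SR proteins carry RNA recognition motifs and a tail rich in arginine and serine, bind enhancer sequences in exons, and help the spliceosome to choose nearby splice sites. Kinases of the SRPK and CLK families phosphorylate that tail and control the location and activity of the proteins. The hnRNPs coat nascent transcripts, and many of them repress exons, while others act in RNA transport, stability and translation; in oligodendrocytes the protein of Hnrnpa2b1 is known for carrying Mbp mRNA into the processes. Many genes of both families control their own level through exons or introns that, when kept, send the mRNA to nonsense-mediated decay.

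The cells were made in culture from mouse pluripotent stem cells, and OPCs give rise to the oligodendrocytes that myelinate axons in brain and spinal cord. They were plated in medium that permits differentiation, left to attach for 1 h, and then exposed for 4 h to cetylpyridinium chloride (CPC), to C12-C14-alkyl(ethylbenzyl)dimethylammonium chloride (AEBDAC), to methyltrioctylammonium chloride (MTOAC) or to the vehicle dimethyl sulfoxide. CPC has a pyridinium ring and a hexadecyl chain, AEBDAC has an ethylbenzyl ring and an alkyl chain, whereas MTOAC lacks an aromatic ring and has octyl chains. Doses were set to the IC75 of each compound, the concentration that inhibits by 75%, so the concentrations, which are not given in the labels, need not match between compounds. No genotype, strain or line is named, and the groups share the medium, the plating and the exposure time. Poly(A) RNA was sequenced in 3 libraries per group. Whether those libraries came from separate cultures is not stated, so p-values measure only the spread between them, which may be technical. In such bulk samples, fewer cells of a type and less RNA per cell cannot be told apart.

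The sequences upstream of 4 members are shown because the results turn on them: Srsf3 and Srsf6 were called with 2 of the compounds, Hnrnpu kept its call with MTOAC whichever library was left out, and Hnrnpc, chosen after its values were seen, is an abundant hnRNP gene whose groups overlapped. They are RefSeq promoter sequences on GRCm38.p6, cut to the 250 bases before the RefSeq start and, where the GENCODE gene begins earlier, to the bases before that gene. Each is written 5′ to 3′ on the strand of its gene, and capitals mark matches, on either strand, to the motifs searched. Srsf3 lies at chr17:29032410-29032627 on the plus strand, Srsf6 at chr2:162931258-162931507 on the plus strand, Hnrnpu at chr1:178337816-178338065 on the minus strand and Hnrnpc at chr14:52104029-52104271 on the minus strand.
Srsf3: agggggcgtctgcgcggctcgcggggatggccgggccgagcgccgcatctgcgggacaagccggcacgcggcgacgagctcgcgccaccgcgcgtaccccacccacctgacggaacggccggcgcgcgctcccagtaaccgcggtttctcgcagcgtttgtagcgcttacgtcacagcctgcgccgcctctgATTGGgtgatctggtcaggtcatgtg
Srsf6: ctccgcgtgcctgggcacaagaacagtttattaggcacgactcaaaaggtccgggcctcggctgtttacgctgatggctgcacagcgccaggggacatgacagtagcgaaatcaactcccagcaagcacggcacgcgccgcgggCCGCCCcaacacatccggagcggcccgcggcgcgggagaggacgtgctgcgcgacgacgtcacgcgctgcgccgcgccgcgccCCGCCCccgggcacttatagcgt
Hnrnpu: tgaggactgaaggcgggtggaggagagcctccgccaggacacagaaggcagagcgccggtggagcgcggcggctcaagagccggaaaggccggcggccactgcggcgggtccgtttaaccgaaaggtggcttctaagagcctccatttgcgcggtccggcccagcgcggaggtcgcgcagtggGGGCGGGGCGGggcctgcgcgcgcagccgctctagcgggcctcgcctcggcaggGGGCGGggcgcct
Hnrnpc: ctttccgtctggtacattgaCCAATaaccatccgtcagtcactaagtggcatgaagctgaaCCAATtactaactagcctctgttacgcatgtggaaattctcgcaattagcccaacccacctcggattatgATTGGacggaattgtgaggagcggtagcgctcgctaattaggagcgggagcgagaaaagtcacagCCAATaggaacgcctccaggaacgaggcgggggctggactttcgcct

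The capitals in Srsf3 are an inverted CCAAT box, those in Srsf6 are inverted GC boxes, those in Hnrnpu are GC boxes, of which the longer run holds a pair that share a base, and those in Hnrnpc are CCAAT boxes in both orientations. A TATA box of Srsf3 lies in the last 32 bases of its 250, which are inside the GENCODE gene and are not printed. Promoters were in the table for all 16 SR and SR-related genes and for 18 of the 20 hnRNP genes, all but Hnrnpll and Hnrnpul2. Searched on both strands, a GC box (GGGCGG) was found in 14 of 16 SR and 14 of 18 hnRNP genes, where 66.1% of the 9062 tested genes with a promoter had one. A CCAAT box (letters CCAAT) was found in 6 of 16 SR and 13 of 18 hnRNP genes, against 41.7% of tested genes. An ETS site (CCGGAAG) was found in 4 SR and 2 hnRNP genes, against 16.6%. An E-box (CACGTG) was found in 0 SR genes and in 3 hnRNP genes (Hnrnpa3, Hnrnpd and Hnrnpf), against 9.94%. The TATA box (TATAAA) was found in Srsf2, Srsf3 and Hnrnpm, against 7.44%. A cyclic AMP response element (TGACGTCA) was found in Tra2a, against 3.11% of tested genes. The C/EBP-ATF response element (TGATGNAA) was found in Hnrnpa2b1, against 2.24%. These counts describe letters in a window and were not tested.

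Deposited totals lay between 772637 and 797758 TPM per library, and the depth is not known beyond the minimum stated in the labels. Vehicle library 1 stood apart: mt-Nd3, a gene of the mitochondrial genome, was listed at 0 there, and its mitochondrial genes summed to 86422 TPM against 147539 to 183001 TPM in the other 11 libraries. All 7 OPC markers examined were detected, and Olig1 was listed at 455.7 to 1284 TPM. The 7 markers summed to 1276 to 1453 TPM with CPC, 1126 to 1457 TPM with AEBDAC and 866 to 1128 TPM with MTOAC, against 1597 to 2013 TPM with vehicle. The 5 neuronal markers summed to 324 to 389, 307 to 345 and 258.5 to 341 TPM with CPC, AEBDAC and MTOAC, against 424 to 470.1 TPM with vehicle. Both sums were below vehicle in all 9 exposed libraries, and their part in the results below was not tested. The 5 microglial markers summed to at most 1.71 TPM and the 5 mesenchymal markers to at most 1.07 TPM in any library, and 0 of these 10 passed the filter. Astrocyte sums, 165.5 to 228 TPM with the compounds and 178 to 233 TPM with vehicle, overlapped, as did those of pluripotent cells, 8.68 to 35.9 and 6.54 to 33.0 TPM, and the oligodendrocyte sums were 35.3 to 51.3 and 52.4 to 73.0 TPM, without overlap and with Mog at 0 everywhere.

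With AEBDAC and MTOAC, more SR genes than hnRNP genes were called lower than vehicle in the fit of all 12 libraries. With MTOAC, 7 of 16 SR and SR-related genes and 3 of 20 hnRNP genes were called lower (limma, adjusted p under 0.05 over all tested genes) and 0 were called higher, where 5.75% of all tested genes were called lower, and 7.26% of those averaging at least 20 TPM. With AEBDAC, 3 SR genes (Rsrp1, Srsf3 and Srsf6) and 0 hnRNP genes were called, all lower, against 0.883% of all tested genes, or 1.48% of the abundant ones. With CPC, limma called 0 members, against 0.0333% of all genes and 0.0716% of abundant genes called lower, while 9 SR and 5 hnRNP genes had an unadjusted p under 0.05, as did 13.6% of all tested genes. Replicate numbers paired the CPC and vehicle libraries, and in a fit blocked on that number 4 members were called lower with CPC: Srsf6 (adjusted p = 0.0352), Srsf3 (0.0346), Hnrnpu (0.0442) and Srsf5, against 1.25% of all tested genes. With the block and quantile normalization together, 0 members were called with CPC. An unadjusted p under 0.05 was reached with AEBDAC by 7 SR and 4 hnRNP genes (19.2% of all tested genes) and with MTOAC by 10 SR and 8 hnRNP genes (24.4%).

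These counts rested in part on single libraries. Without MTOAC library 1 the MTOAC count was 4 (2 SR and 2 hnRNP), and without MTOAC library 2 it was 2 (1 SR and 1 hnRNP). In these fits the families did not differ in the number called. Without vehicle library 3 the MTOAC count was 6 (4 SR and 2 hnRNP). It lay between 7 and 10 without each of the other 3 libraries of that comparison. Of all tested genes, 232, 119 and 282 were called lower without MTOAC library 1, MTOAC library 2 and vehicle library 3. They were 526, 248 and 279 without MTOAC library 3, vehicle library 1 and vehicle library 2, in place of 690. The AEBDAC count was 0 without AEBDAC library 2, AEBDAC library 3 or vehicle library 2, and 1 without AEBDAC library 1, vehicle library 1 or vehicle library 3. Over all tested genes the AEBDAC calls lower were 3, 4 and 6 without AEBDAC library 2, AEBDAC library 3 and vehicle library 2. They were 79, 20 and 25 without AEBDAC library 1, vehicle library 1 and vehicle library 3, in place of 106. Without vehicle library 1 the 1 member called with AEBDAC was Srsf1, at a log2 fold change of −0.76 (adjusted p = 0.0341). Only Srsf3 and Hnrnpu kept the MTOAC call in all 6 of these fits. The median tested gene shifted by −0.17, −0.16 and −0.22 log2 with CPC, AEBDAC and MTOAC. Without vehicle library 1 this shift was −0.09, −0.07 and −0.14, and without vehicle library 2 or 3 it lay between −0.28 and −0.20. Under quantile normalization, which removes that shift, the AEBDAC calls were 2 lower and 0 higher (Rsrp1 and Srsf3), and the MTOAC calls were 6 lower and 1 higher (Hnrnpll). The calls over all tested genes with MTOAC were then 217 lower and 213 higher, in place of 690 lower and 95 higher. With AEBDAC they were 86 lower and 96 higher, in place of 106 and 47, and with CPC 4 and 12, in place of 4 and 4.

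**Figure D1:**
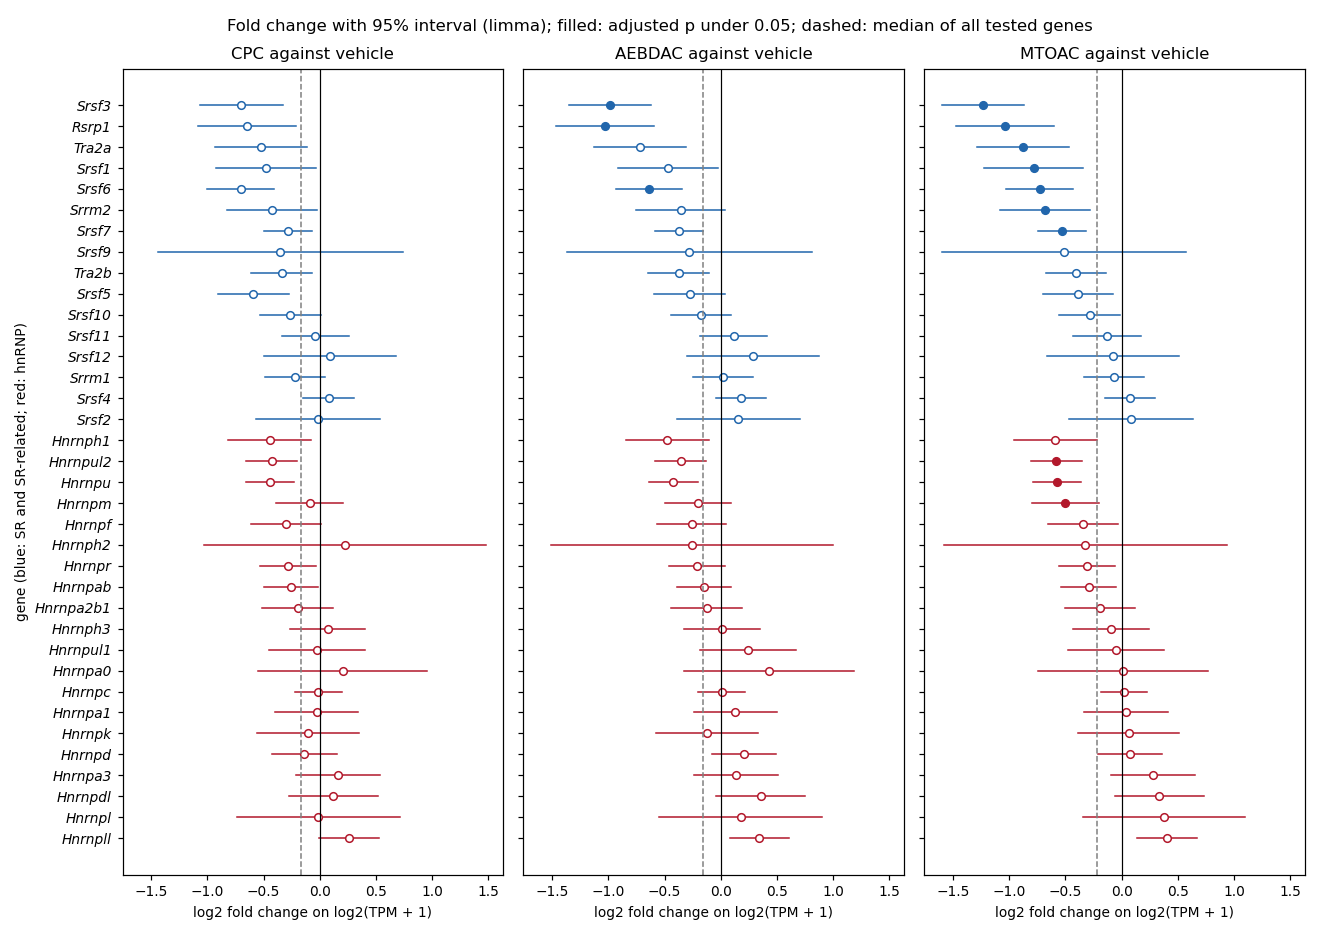
Log2 fold change on log2(TPM + 1) of the 36 genes with each compound against vehicle, with 95% intervals from limma; filled points have an adjusted p under 0.05 and the dashed line is the median of all tested genes. Filled points lie left of 0 in 3 SR genes with AEBDAC and in 7 SR and 3 hnRNP genes with MTOAC.

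Srsf3, a classical SR protein that also acts in mRNA export, had the lowest p of all members with AEBDAC and with MTOAC. Its gene lies at chr17:29032628-29043373 on the plus strand of GRCm38. Srsf3 was listed at 181, 120.1 and 136 TPM with CPC, at 144, 96.8 and 115 TPM with AEBDAC and at 104, 90.3 and 101 TPM with MTOAC, against 241, 227 and 231 TPM with vehicle. All 9 exposed libraries were below all vehicle libraries, and the CPC and AEBDAC libraries spread more widely than those of MTOAC and vehicle. The log2 fold change of Srsf3 was −1.23 ± 0.17 (SE) with MTOAC (adjusted p = 0.00647), 1.02 below the median gene, and −0.99 ± 0.17 with AEBDAC (adjusted p = 0.0294), and with CPC it was −0.70 ± 0.17 (adjusted p = 0.154). Without vehicle library 1 the values of Srsf3 were −1.21 with MTOAC (adjusted p = 0.0205) and −0.96 with AEBDAC (adjusted p = 0.0811). The AEBDAC call was also absent without vehicle library 2, vehicle library 3, AEBDAC library 2 or AEBDAC library 3.

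Srsf6 encodes another classical SR protein, which promotes inclusion of exons with its enhancers. It was listed at 68.6, 64.3 and 68.8 TPM with CPC, at 63.0, 71.4 and 77.9 TPM with AEBDAC and at 62.8, 56.2 and 81.6 TPM with MTOAC, against 109.6, 111 and 111 TPM with vehicle. The vehicle libraries lay close together (SD 0.558 TPM), and every exposed library was below them. Srsf6 changed by −0.73 ± 0.14 log2 with MTOAC (adjusted p = 0.0153), by −0.64 ± 0.14 with AEBDAC (adjusted p = 0.0484) and by −0.71 ± 0.14 with CPC (adjusted p = 0.108). The MTOAC call was lost without MTOAC library 1 or 2, and the AEBDAC call was lost whichever of its 6 libraries was left out, at −0.64 without vehicle library 1 (adjusted p = 0.116). Without that library the MTOAC value was −0.74 (adjusted p = 0.0384).

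Srsf1 and Srsf7 were called with MTOAC alone; the test between compounds is given below. Srsf1, the first SR protein described and a general splicing activator, was listed at 106, 122 and 135 TPM with CPC, 121, 118 and 125 TPM with AEBDAC and 103, 87.9 and 102 TPM with MTOAC, against 112, 208 and 203 TPM with vehicle. Vehicle library 1 lay among the exposed libraries of Srsf1, apart from the other vehicle libraries. Its log2 fold change with MTOAC was −0.78 ± 0.20 (adjusted p = 0.0445) and, without vehicle library 1, −1.07 (adjusted p = 0.00421), but the call was lost without vehicle library 2 or 3 or any MTOAC library. Srsf7, which like Srsf3 serves as an adaptor for mRNA export, was listed at 115, 117 and 117 TPM with CPC, 121, 108 and 101 TPM with AEBDAC and 105, 92.2 and 97.4 TPM with MTOAC, against 137, 143 and 147 TPM with vehicle. The groups did not overlap, and the change with MTOAC was −0.53 ± 0.10 log2 (adjusted p = 0.0151), lost without MTOAC library 2, and −0.56 without vehicle library 1 (adjusted p = 0.0287).

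The other 7 genes with Srsf symbols were not called with any compound in the fit without a block. Srsf5, a classical SR protein, averaged 92.6 ± 14.0 TPM with CPC, 115 ± 15.0 TPM with AEBDAC and 107 ± 12.9 TPM with MTOAC, against 139 ± 10.7 TPM with vehicle (SD, n = 3 each). All its exposed libraries were below vehicle, with log2 fold changes of −0.59, −0.28 and −0.39. With the block, Srsf5 was called lower with CPC and with MTOAC, and with block and quantile normalization together it was called with no compound. Srsf2, a core SR protein that also acts in transcription, was listed at 19.8, 27.0 and 16.9 TPM with CPC, 26.2, 22.9 and 22.0 TPM with AEBDAC and 22.4, 24.8 and 20.0 TPM with MTOAC, against 33.2, 16.6 and 16.8 TPM with vehicle. Vehicle library 1 was the highest of all for Srsf2 and the other vehicle libraries were the lowest, so the groups overlapped and the log2 fold changes were −0.01, 0.16 and 0.08. Srsf2 overlaps Mettl23 and Mfsd11 on the other strand, and the kit is not described as marking strand, so reads of these genes cannot be told apart. Srsf12, a low-abundance splicing repressor, was listed at 3.49, 2.07 and 1.45 TPM with CPC, 3.26, 2.53 and 2.38 TPM with AEBDAC and 2.28, 2.15 and 1.29 TPM with MTOAC, against 1.93, 2.44 and 1.77 TPM with vehicle, and its groups overlapped with each compound. Srsf4, Srsf10 and Srsf11 had log2 fold changes between −0.29 and 0.18, and Srsf9, at 0.581 to 6.95 TPM, had log2 fold changes of −0.35, −0.28 and −0.51 with an SE of 0.50.

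Among the SR-related genes, Rsrp1, an arginine and serine rich protein, Tra2a and Srrm2 were called. Rsrp1 was listed at 59.0, 57.8 and 49.0 TPM with CPC, 38.2, 41.6 and 47.1 TPM with AEBDAC and 33.8, 41.9 and 51.6 TPM with MTOAC, against 116, 82.1 and 69.2 TPM with vehicle. The groups of Rsrp1 did not overlap although the vehicle libraries spread widely, with library 1 highest. Its log2 fold change was −1.03 ± 0.20 with AEBDAC (adjusted p = 0.0404), −1.04 ± 0.20 with MTOAC (adjusted p = 0.0165) and −0.65 ± 0.20 with CPC (adjusted p = 0.218). Without vehicle library 1 Rsrp1 changed by −0.82 with AEBDAC (adjusted p = 0.0986) and by −0.84 with MTOAC (adjusted p = 0.0425). When single libraries were left out, the AEBDAC call held only without vehicle library 3, and the MTOAC call was lost without MTOAC library 1 or 2.

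Tra2a and Tra2b are paralogous activators that bind enhancers rich in GAA. Tra2a was listed at 98.7, 74.0 and 82.1 TPM with CPC, 81.0, 62.9 and 77.8 TPM with AEBDAC and 64.7, 52.4 and 83.8 TPM with MTOAC, against 145, 109.7 and 113 TPM with vehicle. All exposed libraries of Tra2a were below vehicle, and the change with MTOAC was −0.88 ± 0.19 log2 (adjusted p = 0.0241), a call lost without vehicle library 1 (−0.75, adjusted p = 0.0707), vehicle library 3, MTOAC library 1 or MTOAC library 2. Tra2b was listed at 126, 113 and 114 TPM with CPC, 120.3, 109.7 and 114 TPM with AEBDAC and 114, 96.6 and 127 TPM with MTOAC, against 168, 146 and 134 TPM with vehicle. Its groups did not overlap either, but with MTOAC its log2 fold change of −0.41 ± 0.12 missed the threshold (adjusted p = 0.0697). A processed pseudogene of Tra2b, Gm10254, which shares 867 bases at 98.7% identity, was listed at 37.1 TPM in vehicle library 1 and at no more than 0.209 TPM in any other library.

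Srrm2, a scaffold of nuclear speckles, was listed at 85.5, 81.7 and 82.4 TPM with CPC, 90.1, 82.7 and 89.3 TPM with AEBDAC and 65.0, 54.5 and 93.9 TPM with MTOAC, against 135, 95.8 and 108 TPM with vehicle. MTOAC library 3 lay above every CPC library and just below vehicle library 2. The log2 fold change of Srrm2 with MTOAC was −0.68 ± 0.18 (adjusted p = 0.0475) and was, among fits without a single library, kept only without MTOAC library 3. Without vehicle library 1 it was −0.55 (adjusted p = 0.133). Srrm2 overlaps Elob on the other strand. Srrm1, a coactivator that bridges enhancers and the spliceosome, averaged 68.2, 81.1 and 75.9 TPM with CPC, AEBDAC and MTOAC, against 79.8 TPM with vehicle, and its groups overlapped with each compound.

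**Figure D2:**
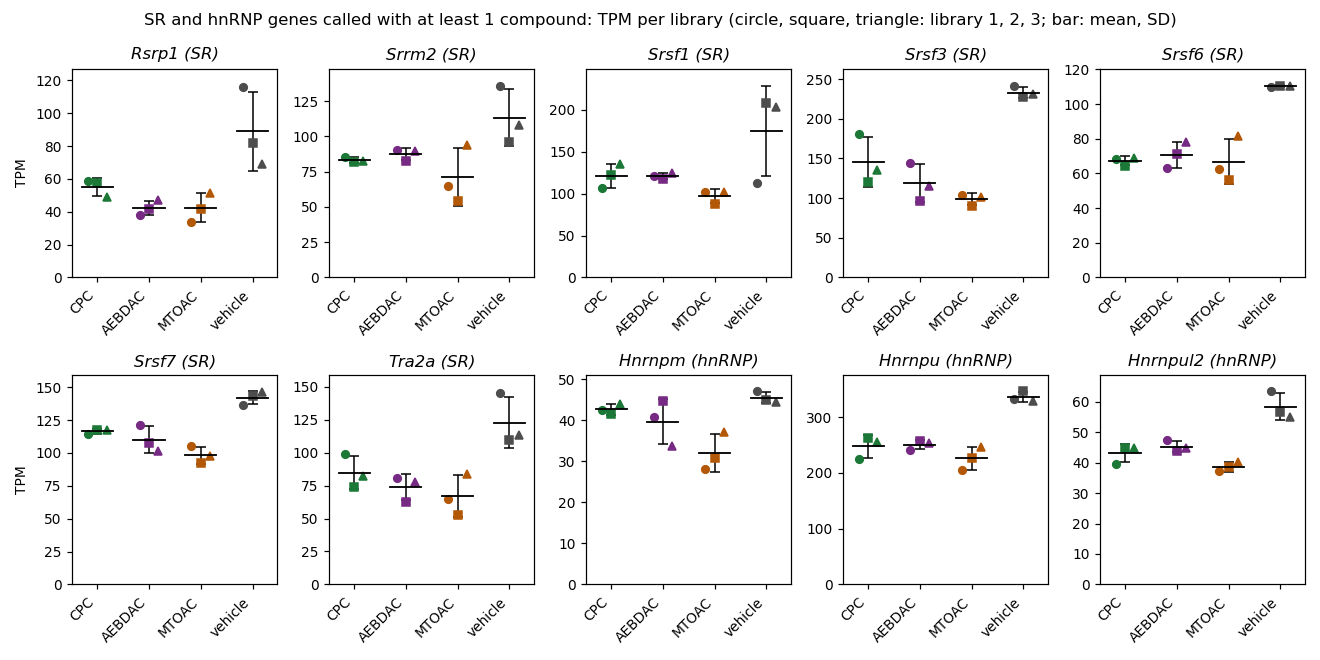
TPM per library of the 10 genes called with at least 1 compound, 7 SR and SR-related and 3 hnRNP; symbols mark library numbers and bars the mean and SD of 3 libraries. Vehicle libraries lie above all exposed libraries for Srsf3, Srsf6, Srsf7, Rsrp1, Tra2a, Srrm2, Hnrnpu and Hnrnpul2, whereas for Srsf1 vehicle library 1, at 112 TPM, lies among them.

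The 3 hnRNP genes called with MTOAC were Hnrnpu, Hnrnpul2 and Hnrnpm. Hnrnpu, also known as scaffold attachment factor A, binds nascent RNA and chromatin, and its gene lies at chr1:178321108-178337797 on the minus strand of GRCm38. It was listed at 224, 263 and 256 TPM with CPC, 241, 257 and 254 TPM with AEBDAC and 205, 226 and 246 TPM with MTOAC, against 332, 346 and 329 TPM with vehicle. The exposed libraries of Hnrnpu formed a tight group well below vehicle. Its log2 fold change was −0.58 ± 0.10 with MTOAC (adjusted p = 0.0130), −0.42 ± 0.10 with AEBDAC (adjusted p = 0.0651) and −0.44 ± 0.10 with CPC (adjusted p = 0.126), and without vehicle library 1 the MTOAC value was −0.58 (adjusted p = 0.0287). Its relative Hnrnpul2 was listed at 39.8, 44.9 and 44.8 TPM with CPC, 47.3, 43.7 and 44.9 TPM with AEBDAC and 37.2, 38.5 and 40.2 TPM with MTOAC, against 63.5, 56.8 and 55.1 TPM with vehicle. The groups did not overlap, and with MTOAC the change was −0.58 ± 0.10 log2 (adjusted p = 0.0141), lost without MTOAC library 2, and −0.52 without vehicle library 1 (adjusted p = 0.0334). Hnrnpul1, the third of these relatives, averaged 61.3 ± 10.9 TPM with MTOAC and 63.8 ± 13.3 TPM with vehicle (SD, n = 3 each), at −0.05 ± 0.19 log2 (adjusted p = 0.904).

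Hnrnpm, a splicing repressor, was listed at 42.4, 41.4 and 44.0 TPM with CPC, 40.7, 44.6 and 33.6 TPM with AEBDAC and 28.1, 30.8 and 37.2 TPM with MTOAC, against 47.0, 44.9 and 44.4 TPM with vehicle. The MTOAC libraries were the low ones, with AEBDAC library 3 within their range. Its change with MTOAC, −0.50 ± 0.13 log2 (adjusted p = 0.0492), held only when MTOAC library 3 was the one left out, and was −0.48 without vehicle library 1 (adjusted p = 0.115). Transcripts of Hnrnpm share 1149 bases at 100% identity with March2, an overlapping gene on the same strand listed at up to 31.1 TPM, and Hnrnpul2 shares 362 bases with AC129217.1, listed at up to 2.16 TPM, so the split of reads between these genes is uncertain. Hnrnpu overlaps Cox20 on the other strand.

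The proteins of Hnrnph1, Hnrnph2, Hnrnph3 and Hnrnpf bind runs of guanine. Hnrnph1 was listed at 100.4, 117 and 111 TPM with CPC, 84.5, 118 and 123 TPM with AEBDAC and 97.6, 82.5 and 119 TPM with MTOAC, against 167, 145 and 137 TPM with vehicle. The groups did not overlap, yet the log2 fold change of Hnrnph1 with MTOAC, −0.59 ± 0.17, had an adjusted p of 0.0587. The averages of Hnrnpf were 159.5, 162 and 153 TPM with CPC, AEBDAC and MTOAC, against 196 TPM with vehicle, those of Hnrnph3 lay between 20.7 and 23.5 TPM in all groups, and Hnrnph2 was listed at 5.35 to 35.6 TPM within vehicle alone. Hnrnpr, a relative of Syncrip, was lower in all exposed libraries than in any vehicle library, with log2 fold changes of −0.29, −0.21 and −0.31 and adjusted p-values of 0.309, 0.342 and 0.119.

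The 3 most abundant members in vehicle were Hnrnpa2b1, Hnrnpa1 and Hnrnpk, and their groups overlapped. Hnrnpa1, an exon repressor, was listed at 629, 929 and 753 TPM with CPC, 781, 978 and 797 TPM with AEBDAC and 763, 968 and 683 TPM with MTOAC, against 694, 838 and 800.2 TPM with vehicle. Hnrnpa2b1 was listed at 725, 810.3 and 602 TPM with CPC, 748, 826 and 661 TPM with AEBDAC and 716, 761 and 651 TPM with MTOAC, against 761, 958 and 729 TPM with vehicle. In both genes library 2 was the highest of every group. Hnrnpk, which binds runs of cytosine, was listed at 623, 741 and 680.0 TPM with CPC, 587, 727 and 708 TPM with AEBDAC and 705, 685 and 913 TPM with MTOAC, against 1048, 665 and 557 TPM with vehicle. Vehicle library 1 was the highest for Hnrnpk and the other vehicle libraries were in or below the range of the exposed ones. Across these 3 genes and 3 compounds, the log2 fold changes lay between −0.20 and 0.13.

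Hnrnpa0 was listed at 228, 352 and 305 TPM with CPC, 335, 385 and 303 TPM with AEBDAC and 263, 351 and 178 TPM with MTOAC, against 137, 331 and 354 TPM with vehicle. Here vehicle library 1 was the lowest of all, and the log2 fold changes of 0.20, 0.43 and 0.01 turned to −0.24, −0.01 and −0.43 without it. Hnrnpll, which represses exons in lymphocytes and binds CA repeats, was listed at 76.9, 98.5 and 89.9 TPM with CPC, 88.6, 94.4 and 97.1 TPM with AEBDAC and 86.7, 97.5 and 109 TPM with MTOAC, against 71.0, 78.6 and 70.7 TPM with vehicle. All AEBDAC and MTOAC libraries were above vehicle, and CPC library 1 overlapped it. The log2 fold change of Hnrnpll was 0.40 ± 0.12 with MTOAC, the highest of the members, with an adjusted p of 0.0686. The remaining hnRNP genes, Hnrnpa3, Hnrnpab, Hnrnpc, Hnrnpd, Hnrnpdl and Hnrnpl, had log2 fold changes between −0.29 and 0.38 and were not called in the fit without a block. Hnrnpab, the next in abundance, was listed at 445.5, 560.4 and 533 TPM with CPC, 549, 578 and 528.5 TPM with AEBDAC and 487, 547 and 463 TPM with MTOAC, against 568, 628 and 639 TPM with vehicle. Its CPC and MTOAC libraries were all below vehicle, while AEBDAC library 2 overlapped it, and its log2 fold changes were −0.26, −0.15 and −0.29 (adjusted p = 0.343, 0.498 and 0.126). Hnrnpc, which binds runs of uridine, averaged 332 ± 28.5, 336 ± 5.49 and 339 ± 6.06 TPM with CPC, AEBDAC and MTOAC, against 335 ± 27.7 TPM with vehicle (SD, n = 3 each), and its 95% interval with MTOAC was −0.19 to 0.23 log2.

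Near-identical copies bear on several of these values. Of the members, 19 (7 SR and 12 hnRNP) share at least 150 bases at 95% identity or more with another GENCODE gene. Gm10052, a processed pseudogene of Hnrnpa1, was listed at 90.7 TPM in CPC library 1, 33.1 TPM in AEBDAC library 3, 201 TPM in MTOAC library 3 and 285 TPM in vehicle library 1, and at 0 in the other 8 libraries. Gm5641, a processed transcript that shares 1488 bases at 100% identity with Hnrnpa3, was listed at 176 to 457 TPM. How reads were split within these pairs is uncertain, and so are the levels of Hnrnpa1 and Hnrnpa3. Hnrnpab, Hnrnph3 and Hnrnpk overlap Phykpl, Rufy2 and Rmi1 on the other strand. For Srsf3 the copies in the files reached at most 2.18 TPM, and Srsf6, Srsf7, Srsf1, Rsrp1, Tra2a and Hnrnpu had no copy of that length.

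**Figure D3:**
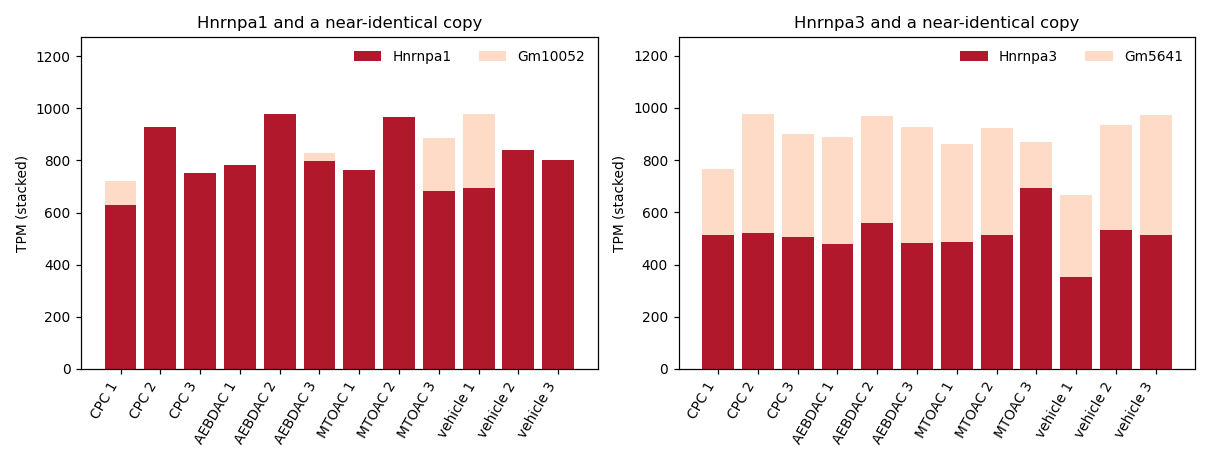
Stacked TPM in each of the 12 libraries of Hnrnpa1 with its processed pseudogene Gm10052, and of Hnrnpa3 with Gm5641. Gm10052 appears in 4 libraries, most in vehicle library 1 (285 TPM), while Gm5641 is present in all 12 at 176 to 457 TPM.

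Set side by side, the SR family lay further below vehicle than the hnRNP family with each compound. The median log2 fold change was −0.35, −0.32 and −0.46 over the 16 SR genes with CPC, AEBDAC and MTOAC, and −0.06, −0.06 and −0.07 over the 20 hnRNP genes. Within the 16, it was −0.29, −0.28 and −0.39 over the 11 Srsf symbols and −0.42, −0.37 and −0.68 over the 5 SR-related genes. Against the median of all tested genes, the SR median was 0.18, 0.16 and 0.24 lower, whereas the hnRNP median was 0.11, 0.11 and 0.14 higher, so the sign for hnRNP genes depends on whether that shift is taken out. The shift was smaller without vehicle library 1, as given above. The median of the abundant genes was −0.13, −0.10 and −0.15, closer to the hnRNP medians than that of all tested genes. Libraries of compound and vehicle did not overlap, with the compound lower, in 9 SR and 6 hnRNP genes with CPC (18% of all tested genes), in 8 and 5 with AEBDAC (19.2%) and in 9 and 7 with MTOAC (22.4%). The compound was higher without overlap in Srsf4 and Hnrnpll with AEBDAC (5.65% of all tested genes) and in Hnrnpll and Hnrnpdl with MTOAC (3.99%). All 9 exposed libraries were below all vehicle libraries in 8 of 16 SR genes (Rsrp1, Srrm2, Srsf3, Srsf5, Srsf6, Srsf7, Tra2a and Tra2b) and in 4 of 20 hnRNP genes (Hnrnph1, Hnrnpr, Hnrnpu and Hnrnpul2), where 10.1% of all tested genes, and 11.5% of the abundant ones, did so. The comparisons share the vehicle libraries. As the members were chosen with results known, no p is given for a family.

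In TPM, which is a level per transcript length, the 16 SR genes summed to 1217, 1187 and 1187 with CPC, 1238, 1180.4 and 1184 with AEBDAC and 1053, 1010.2 and 1173 with MTOAC, against 1666, 1607 and 1570.2 with vehicle. These sums did not overlap with vehicle, and were 25.8%, 25.6% and 33.2% lower on average with CPC, AEBDAC and MTOAC. Srsf3 alone made up 21%, 27.6% and 25.1% of that difference. The 20 hnRNP genes summed to 4641, 5661 and 4999 TPM with CPC, 5102, 5806 and 5253 TPM with AEBDAC and 4979, 5446 and 5351 TPM with MTOAC, against 5518, 5762 and 5279 TPM with vehicle, and these groups overlapped. For each 100 hnRNP TPM there were 23.6 ± 2.62, 22.4 ± 1.97 and 20.5 ± 1.76 SR TPM with CPC, AEBDAC and MTOAC, against 29.3 ± 1.22 with vehicle (SD, n = 3 each), and no exposed library reached a vehicle library. The median log2 level of the SR genes lay 0.80 ± 0.21, 0.90 ± 0.11 and 1.08 ± 0.21 below that of the hnRNP genes with CPC, AEBDAC and MTOAC, against 0.47 ± 0.12 with vehicle. That gap differed from vehicle by −0.33, −0.44 and −0.62 log2, and the CPC value was −0.21 without CPC library 2. With Srsf symbols alone in place of the 16 SR genes, the gap differed from vehicle by −0.27, −0.36 and −0.46 log2.

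**Figure D4:**
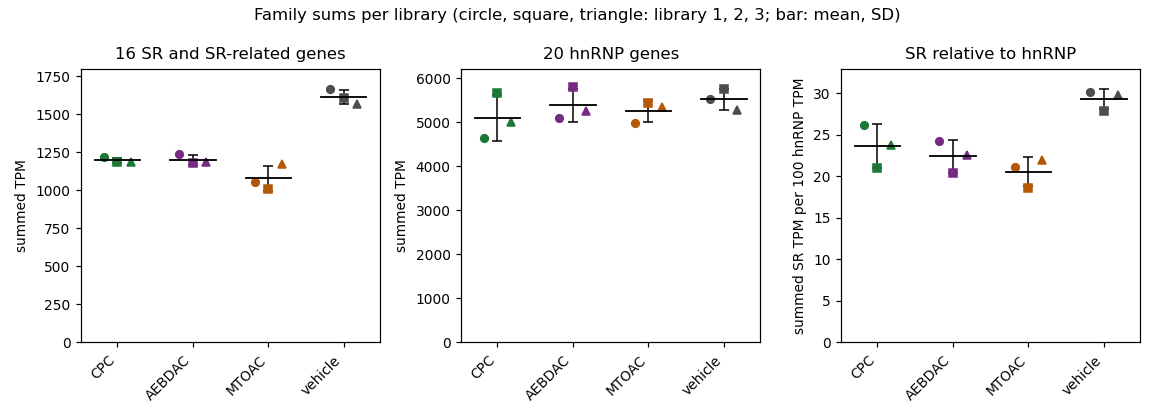
Summed TPM of the 16 SR and SR-related genes, summed TPM of the 20 hnRNP genes and SR TPM per 100 hnRNP TPM in each library, with mean and SD of 3 libraries. SR sums are 1010.2 to 1238 TPM in exposed libraries and 1570.2 to 1666 TPM with vehicle, while hnRNP sums overlap.

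Compounds were compared, each at its IC75 and after the same time, in 3 pairs, with p-values adjusted over all tested genes within a pair. Limma called 0 of the 12009 genes in each pair, so 0% as background, and the lowest adjusted p of a member was 1. At an unadjusted p under 0.05 there were 3 members for MTOAC against CPC, 1 for MTOAC against AEBDAC and 2 for AEBDAC against CPC, against 3.74%, 2.56% and 1.76% of all tested genes. Srsf3 differed by −0.54 log2 between MTOAC, which has no aromatic ring, and CPC, which has a pyridinium ring and a longer chain (95% interval −0.90 to −0.17, adjusted p = 1). For Srsf3 the difference of MTOAC from AEBDAC was −0.25 (−0.62 to 0.12) and that of AEBDAC from CPC −0.29 (−0.65 to 0.08). Srsf7 and Hnrnpm were the others for MTOAC against CPC, at −0.24 (−0.46 to −0.03) and −0.41 (−0.70 to −0.11), and Hnrnpm was the 1 for MTOAC against AEBDAC, at −0.30 (−0.59 to −0.00). Srsf5 and Hnrnpd were 0.31 (0.00 to 0.63) and 0.34 (0.06 to 0.63) higher with AEBDAC than with CPC as fitted, with adjusted p = 1. Across the 10 members called against vehicle, the intervals of these differences ran from −0.90 to 0.27 for MTOAC against CPC, from −0.76 to 0.42 for MTOAC against AEBDAC and from −0.81 to 0.47 for AEBDAC against CPC. All 16 SR genes were lower with MTOAC than with AEBDAC as fitted, with differences of −0.37 to −0.01 log2 and 0 of them at an unadjusted p under 0.05. So were 15 of 20 hnRNP genes and 7585 of the 12009 tested genes, whose median difference was −0.06.

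Annotation that the selection did not use is given as counts, with no test. In GENCODE M21, 13 of 16 SR genes and 10 of 20 hnRNP genes have at least 1 transcript annotated as a target of nonsense-mediated decay, against 29.2% of tested protein-coding genes. A transcript with a retained intron is annotated for 13 SR and 14 hnRNP genes, against 60.3%. Srsf3 has 2 such decay transcripts and 4 with a retained intron among 10 transcripts, and Hnrnpu has 3 and 3 among 9. The deposited values are per gene, so the share of these transcripts was not measured, and their part in the changes was not tested.

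Other parts of the splicing machinery were read from 8 lists with 115 tested genes. With MTOAC 18 of these were called lower and 0 higher (limma), with AEBDAC 4 lower and with CPC 1 lower, against backgrounds of 5.75%, 0.883% and 0.0333%. The MTOAC count was 8 without MTOAC library 1, 3 without MTOAC library 2, 11 without vehicle library 1 and 10 without vehicle library 2, and it was 8 lower and 0 higher under quantile normalization. Of all tested genes, the same fits without a library called 232, 119, 248 and 279 lower, and quantile normalization 217, in place of 690. The AEBDAC count was 1 or 2 without any 1 of its 6 libraries, and the CPC count was 0 without CPC library 2, CPC library 3 or vehicle library 2. Those AEBDAC fits called 3 to 79 of all tested genes lower, in place of 106. Those CPC fits called 1, 0 and 0 of them lower, in place of 4.

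Among hnRNP proteins under other symbols and further splicing regulators, 4 of 25 were called with MTOAC. Sfpq, a partner of Nono in paraspeckles, was the 1 gene of these lists called with CPC. Sfpq averaged 125 ± 5.55 TPM with CPC, 129.5 ± 6.48 TPM with AEBDAC and 105 ± 5.01 TPM with MTOAC, against 228 ± 19.5 TPM with vehicle (SD, n = 3 each). Its log2 fold changes were −0.86 with CPC (adjusted p = 0.0115), −0.81 with AEBDAC (adjusted p = 0.00546) and −1.11 with MTOAC (adjusted p = 0.000600). Tardbp, which represses cryptic exons, was called with AEBDAC (−0.56, adjusted p = 0.0440) and MTOAC (−0.65, adjusted p = 0.0133), and Cirbp, a cold-inducible RNA-binding protein, with MTOAC (−1.21, adjusted p = 0.0160).

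Among partners of SR proteins in nuclear speckles, 4 of 24 were called with MTOAC, among them Arglu1 (−0.85), Zranb2 (−0.99) and Luc7l3 (−0.80), and 2 with AEBDAC, Luc7l3 (−0.78) and Zranb2 (−0.91). With MTOAC 4 of 18 components of the U1 and U2 particles and U2AF were called, including Snrnp70 (−0.60), and 4 of 15 of the tri-snRNP and catalytic core, including Dhx38 (−0.52). Of the exon junction complex and the nonsense-mediated decay pathway, 2 of 14 were called with MTOAC, Upf1 (−0.65, adjusted p = 0.0132) and Upf3b (−1.68, adjusted p = 0.0143). Upf3b was a low gene, at a mean of 0.987 TPM with MTOAC, near the filter of 1 TPM, and 5.39 TPM with vehicle. The SR protein kinases had 0 of 9 called by limma with any compound, while 1, 1 and 3 had an unadjusted p under 0.05 with CPC, AEBDAC and MTOAC. Of all tested genes, 13.6%, 19.2% and 24.4% did so. Clk1 phosphorylates SR proteins in the nucleus and, named here after its values were seen, had a log2 fold change of −0.86 with MTOAC (adjusted p = 0.126). The Sm core had 0 of 7 and the nuclear import factors 0 of 3 called, with 0 at an unadjusted p under 0.05. Their median log2 fold changes with MTOAC were −0.07 and −0.17, where the median tested gene shifted by −0.22. With MTOAC the medians were −0.14 for the other hnRNP proteins and regulators, −0.33 for the speckle partners and −0.22 for the kinases. They were −0.22 for the U1, U2 and U2AF list, −0.43 for the tri-snRNP and catalytic core and −0.30 for the exon junction and decay list. The SR median with MTOAC was −0.46. With AEBDAC the catalytic core (−0.42) and the exon junction and decay list (−0.35) had lower medians than the SR genes (−0.32). The other lists then lay between −0.26 and −0.07. With CPC the exon junction and decay list (−0.43) was lower than the SR genes (−0.35), and the other lists lay between −0.30 and −0.01.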

How the data were processed

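The authors sequenced poly(A) RNA of 12 libraries (3 per group), and the deposited values are TPM per gene symbol, quantified with Salmon on mm10, per the submitters' processing notes. For Salmon no version, and for genes no annotation, is given in the sources used here. TPM is a share of the library, so a fall of many genes raises the others, and it keeps no read depth. The design named a test for TPM in case the files held no counts, and that test was used.

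Values were transformed to log2(TPM + 1), a pseudocount of 1 that makes fold changes of low genes too small. The filter asked for 1 TPM or more in 3 or more libraries, and the genes passing it were fitted together in limma 3.58.1 (R 4.3.3) with a trend and robust variance over all 12 libraries, p-values were adjusted by Benjamini-Hochberg over the 12009 genes, and an adjusted p under 0.05 was a call. Genes averaging at least 20 TPM are called abundant. Intervals are 95% confidence intervals. The procedure was run on simulated data with noise independent between genes and libraries. Those data held no deviation shared within a library or a replicate number, so they do not test the calls against such deviations. Members and lists were chosen with earlier results of these data known. Values per library are given for every member called against vehicle, for the 3 members of each family with the highest mean TPM in vehicle, and for those with the highest and lowest fold change in each family and comparison; of the other lists at most 3 called genes per list and comparison are named, by smallest p.

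No 2 libraries were identical, and within-group correlations over genes were 0.915 to 0.964. Same-numbered libraries deviated together (r over 0.1 in all 3 pairs) between CPC and vehicle (0.34, 0.31 and 0.23), between MTOAC and AEBDAC, and between AEBDAC and CPC, but not in the other comparisons. This pairing comes from the data, since the labels give only a number. Symbols were matched to GENCODE M21 (34858 of 35385). Copies were found with BLAST 2.17.0 (at least 150 bases at 95% identity), and promoters are those of RefSeq. Alternatives were a pseudocount of 0.5, no filter, quantile normalization, a replicate block, only the 2 groups compared, no trend, each library left out, and, chosen after seeing the data, rescaling without mitochondrial genes and only abundant genes.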

Additional observations from a re-analysis of the deposited data

How the results depend on the processing

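None of the 13 calls of a gene against vehicle changed sign in 195 alternatives, but 76 of these alternatives no longer gave the call. Only Srsf3 with MTOAC was called in all 15 of its alternatives, with adjusted p from 0.00147 to 0.028. With the replicate number as a block, the members called were 4 for CPC, 6 for AEBDAC and 14 for MTOAC (1 of them higher), and 0 in each pair of compounds. Of all tested genes, the block called 1.25%, 7.05% and 13.8% lower and 0.283%, 1.87% and 2.04% higher with CPC, AEBDAC and MTOAC. With the block and quantile normalization the members called were 0 for CPC, 7 for AEBDAC (5 lower and 2 higher) and 9 for MTOAC (7 lower and 2 higher), where 0.3%, 3.5% and 4.78% of tested genes were called lower and 0.658%, 4.06% and 5.16% higher. For AEBDAC the count was 0 without the filter, 0 when only the 2 groups were fitted and 1 without trend and robust variance. Over all genes, those fits called 24 of 20884, 0 of 12009 and 55 of 12009 lower, in place of 106. For MTOAC the count was 1 when only the 2 groups were fitted, where 10 of all tested genes were called lower, in place of 690. Leaving out 1 library gave 0 to 1 calls for AEBDAC, 2 to 10 for MTOAC, 0 for CPC and 0 between compounds. In those fits 3 to 79 of all tested genes were called lower for AEBDAC and 119 to 526 for MTOAC. The difference from vehicle in the gap between SR and hnRNP genes was smaller with means over members in place of medians. It was then −0.25 in place of −0.33 for CPC, −0.28 in place of −0.44 for AEBDAC and −0.36 in place of −0.62 for MTOAC. With medians, leaving out 1 library gave −0.40 to −0.21, −0.50 to −0.37 and −0.72 to −0.51 for CPC, AEBDAC and MTOAC. For the members chosen by the rule for values per library, 44 results against vehicle were not called. Of these, 11 were called in at least 1 alternative, and signs reversed in 14. With CPC, quantile normalization gave 0.18 for Srsf2 and 0.0777 for Hnrnpm, alone and with the block, and rescaling without mitochondrial genes gave 0.0253 for Srsf2 and 0.0137 for Hnrnpa1. With MTOAC, quantile normalization gave 0.19 for Srsf12, alone and with the block. Leaving out 1 library gave, with CPC, −0.15 to 0.29 for Srsf12, −0.19 to 0.30 for Srsf2, −0.24 to 0.45 for Hnrnpa0, −0.17 to 0.11 for Hnrnpa1 and −0.30 to 0.16 for Hnrnpk. With AEBDAC it gave −0.0032 to 0.47 for Srsf2, −0.0105 to 0.67 for Hnrnpa0 and −0.31 to 0.14 for Hnrnpk. With MTOAC it gave −0.18 to 0.0847 for Srsf12, −0.0797 to 0.40 for Srsf2, −0.43 to 0.27 for Hnrnpa0, −0.10 to 0.15 for Hnrnpa1 and −0.13 to 0.32 for Hnrnpk. The cause was not tested. TPM keeps no depth, so counting error is unknown.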

Other observations

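Over the 12 libraries, the 5 tested genes whose log2 level was most like the median of the SR genes were Zik1 (Pearson r = 0.948), Spdl1 (0.946), Klhl9 (0.945), Cdca5 (0.945) and Stk35 (0.942). Cdca5, known as sororin, which holds sister chromatids together, averaged 11.4 ± 0.603 TPM with CPC, 11.2 ± 1.04 TPM with AEBDAC and 9.57 ± 1.71 TPM with MTOAC, against 18 ± 1.14 TPM with vehicle (SD, n = 3 each). Spdl1, which acts at kinetochores, averaged 10.7 ± 1.10 TPM with CPC, 10.2 ± 0.0730 TPM with AEBDAC and 9.05 ± 0.877 TPM with MTOAC, against 14.1 ± 0.413 TPM with vehicle. The libraries share groups, so these correlations describe a common order of the groups and have no test.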
